A study of Mus musculus with 14 samples.

Results

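Internal exons with a length divisible by 3 were followed in C2C12 cells, a mouse myoblast line. Isoforms of Quaking (Qk) had been depleted with small interfering RNAs. Leaving out a coding exon of such a length would not move the reading frame. The unit is the exon bin, a piece of a gene's exons cut wherever transcripts differ in an exon boundary. A bin was taken when it was neither the first nor the last numbered bin of its gene, was separated from both neighbouring bins by more than 1 nt, was at most 200 nt long and had a length divisible by 3. The rule uses positions only and no measured value, and does not require that an exon be alternative. It was met by 1059 of the 4019 bins in the table (26.3%), in 185 of its 228 genes. Of these exons, 999 had an adjusted p-value and 60 had none. Among 991 tested exons that matched an annotated exon, 802 were skipped by no annotated transcript.

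Quaking is an RNA-binding protein of the STAR family that binds ACUAA-type elements in RNA. Its isoforms differ at the C-terminal end: Qk5 carries a nuclear localization signal, while Qk6 and Qk7 lack it, Qk7 being largely cytoplasmic. In muscle cells Quaking is known as a regulator of alternative splicing that binds introns beside the exons it regulates. A cassette exon whose length is a multiple of 3 adds or removes a stretch of protein and leaves the downstream reading frame as it was, whereas other lengths shift the frame.

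The groups were control siRNA, Qk5-specific siRNA and Qk6/7-specific siRNA, with 3 labelled replicates each, replicate 1 of each being sequenced in several runs. All were cultures of the same C2C12 line kept in high-glucose medium with serum and transfected transiently with a lipid reagent. A pan-Qk depletion with 1 labelled replicate was not analysed here. Whether the replicates came from separate cultures is not stated, so the authors' p-values cover replicate spread that may be technical. The tables give no value per replicate, so the read depth is unknown and no SD stands beside any value.

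Whole-gene Qk had a mean normalized count of 5875 in control, 3267 in Qk5 depletion (DESeq adjusted p = 0.00246) and 5271 in Qk6/7 depletion (DESeq adjusted p = 1) by the authors' deposited table, which does not separate the isoforms. Of the 8 myoblast and early muscle markers, 2 were in the expression table, which lists changed genes only: Myf5, with a mean normalized count of 810 in control, 970 in Qk5 depletion and 1521 in Qk6/7 depletion, and Myog, with 153, 390 and 232, by the authors' deposited table. Of markers of other cell types, 1 of 3 for fibroblasts (Dpt), 0 of 3 for adipocytes, 1 of 3 for neurons or glia (Tubb3) and 1 of 4 for macrophages (Cd68) were listed, and absence from that table is no sign of a level of 0. The mean normalized count of Dpt was 194 in control, 361 in Qk5 depletion and 94.6 in Qk6/7 depletion, that of Tubb3 1700, 3159 and 1525, and that of Cd68 56.6, 77.0 and 19.3, by the authors' deposited table. The part of such markers in the exon results was not tested.

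A bin was called at an adjusted p-value below 0.05 in the authors' DEXSeq test, which compares the use of a bin relative to the rest of its gene over the 3 conditions together. The log2 fold of a bin in either depletion therefore has no p-value of its own, and both depletions are set against the same controls. By this threshold 27 of 999 frame-preserving exons were called (2.70%, exact 95% binomial interval 1.79 to 3.91, counting error only), in 26 genes. Over all 3737 tested bins of the table the share called was 6.18%, a higher share, with no test of the difference. The table holds only genes with at least 1 bin below an adjusted p of 0.1. Of the roughly 142000 bins that the deposited p-values imply were tested in all, 0.163% were called.

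The shortest called exons are shown first, because their whole content can be read at a glance. Of the 27 called exons 8 were at most 51 nt long, and the wholly coding ones are given here with 9 bases of each neighbouring exon. Capitals mark the alternative exon and lower case its neighbours in the messenger RNA. The sequences are those of GENCODE M21 transcripts on GRCm38, matched to the bins by chromosome, strand, exon length and spacing within the gene.
Vps29 E002, GRCm38 chr5:122356794-122356805, plus strand: gacaggatgGCTGGGCACAGAttggtgttg
Mark3 E016, GRCm38 chr12:111651958-111651984, plus strand: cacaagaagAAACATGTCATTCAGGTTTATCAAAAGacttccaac
Bnip2 E011, GRCm38 chr9:70004306-70004341, plus strand: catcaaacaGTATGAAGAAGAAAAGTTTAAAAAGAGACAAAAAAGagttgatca
Myof E039, GRCm38 chr19:37969907-37969945, minus strand: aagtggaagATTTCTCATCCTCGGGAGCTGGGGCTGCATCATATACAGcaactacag
Ndrg4 E017, GRCm38 chr8:95712325-95712363, plus strand: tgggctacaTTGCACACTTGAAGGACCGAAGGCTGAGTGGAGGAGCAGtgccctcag
Spag9 E036, GRCm38 chr11:94113263-94113301, plus strand: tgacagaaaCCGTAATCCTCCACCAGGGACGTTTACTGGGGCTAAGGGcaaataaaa
Exoc1 E016, GRCm38 chr5:76557819-76557863, plus strand: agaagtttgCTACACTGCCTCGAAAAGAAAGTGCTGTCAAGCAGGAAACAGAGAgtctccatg
The remaining short exon, 45 nt on chromosome X, matched Sept6, whose symbol the table stores as a date. It was not wholly coding in any annotated protein-coding transcript that holds it as an internal exon.

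Longer exons on which the results below turn are printed in the same way, among them the frame-preserving exon with the smallest adjusted p (Map4k4) and the alternative exon of a tropomyosin gene (Tpm1).
Lrrfip1 E016, GRCm38 chr1:91103247-91103318, plus strand: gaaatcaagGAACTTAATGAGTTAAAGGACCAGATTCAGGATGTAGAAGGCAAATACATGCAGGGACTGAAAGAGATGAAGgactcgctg
Rai14 E008, GRCm38 chr15:10589259-10589345, minus strand: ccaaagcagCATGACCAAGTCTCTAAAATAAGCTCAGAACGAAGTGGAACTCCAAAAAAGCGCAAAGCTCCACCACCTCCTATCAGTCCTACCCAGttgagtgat
Sorbs2 E007, GRCm38 chr8:45741487-45741579, plus strand: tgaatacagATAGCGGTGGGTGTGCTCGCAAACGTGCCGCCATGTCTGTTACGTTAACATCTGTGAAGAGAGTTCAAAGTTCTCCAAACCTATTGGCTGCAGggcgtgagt
Ppp2r5c E019, GRCm38 chr12:110574745-110574861, plus strand: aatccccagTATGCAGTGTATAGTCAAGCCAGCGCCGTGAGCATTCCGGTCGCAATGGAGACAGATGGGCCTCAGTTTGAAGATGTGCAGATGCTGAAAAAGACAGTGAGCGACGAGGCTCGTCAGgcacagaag
Tpm1 E015, GRCm38 chr9:67048124-67048249, minus strand: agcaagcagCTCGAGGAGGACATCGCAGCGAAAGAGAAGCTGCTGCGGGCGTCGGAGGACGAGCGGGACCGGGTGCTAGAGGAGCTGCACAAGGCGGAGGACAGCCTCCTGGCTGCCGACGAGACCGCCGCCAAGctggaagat
Erbb2ip E008, GRCm38 chr13:103830188-103830331, minus strand: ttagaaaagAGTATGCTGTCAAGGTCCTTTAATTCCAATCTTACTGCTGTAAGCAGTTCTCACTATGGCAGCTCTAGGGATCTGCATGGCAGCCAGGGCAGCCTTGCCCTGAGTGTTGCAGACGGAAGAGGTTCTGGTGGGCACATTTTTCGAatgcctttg
Map4k4 E017, GRCm38 chr1:40001430-40001591, plus strand: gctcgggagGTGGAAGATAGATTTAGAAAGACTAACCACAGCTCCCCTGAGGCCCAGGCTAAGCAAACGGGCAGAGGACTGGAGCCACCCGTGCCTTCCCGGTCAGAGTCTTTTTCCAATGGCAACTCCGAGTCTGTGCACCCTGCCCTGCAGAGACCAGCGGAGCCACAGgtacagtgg
The Map4k4 exon held the Quaking-type word ACTAA (transcript strand only), one of 2 such exons among the 27 called (7.41%), beside 45 of 991 tested exons with a matched sequence (4.54%). Intron sequence, where Quaking is known to act, was not analysed here.

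The called exons had their larger folds in Qk5 depletion. Of the 27, 16 were used more than in control and 11 less; over all tested bins of the table, 3.10% were called and used more and 2.97% called and used less in Qk5 depletion. The median log2 fold of the exons used more was 2.01 in Qk5 depletion and -0.33 in Qk6/7 depletion. For those used less the medians were -1.49 and 0.19. The absolute log2 fold was larger in Qk5 than in Qk6/7 depletion in 24 of 27. That was so in 126 of 204 called bins of other kinds, among them 13 of the 18 called frame-shifting exons. The difference between these shares was not tested. The absolute log2 fold was at least 1 in 24 exons in Qk5 depletion against 2 in Qk6/7 depletion. The median absolute log2 folds of the 27 were 1.53 and 0.36, against 0.11 and 0.09 for the 972 exons not called. Since the call rests on these same folds, the gap between called and uncalled exons is a description.

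**Figure D1:**
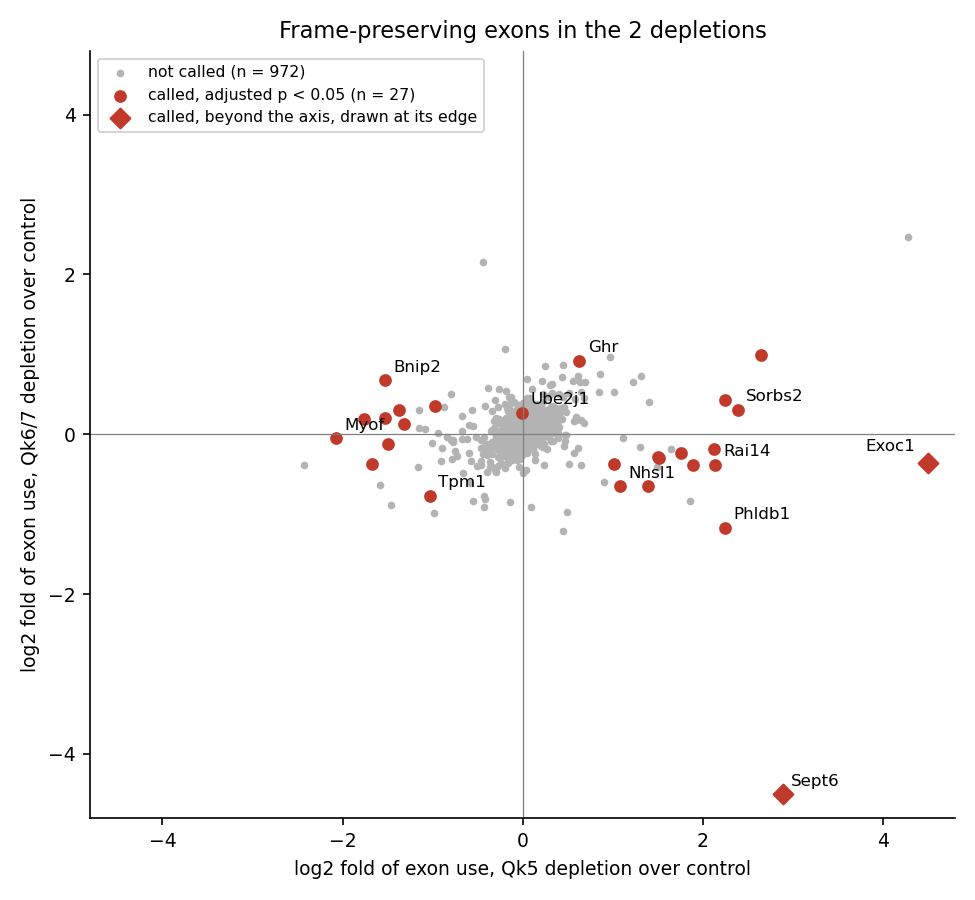
Each point is a tested frame-preserving exon, with its log2 fold of use over control in Qk5 depletion (horizontal axis) and in Qk6/7 depletion (vertical axis), as deposited. The 27 called exons (red) spread along the horizontal axis, with 16 to the right of 0 and 11 to the left, while the 972 others (grey) crowd around 0. Diamonds are the exons of Exoc1 and Sept6, drawn at the edge because a value lies beyond the axis.

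In Qk6/7 depletion 11 called exons were used more than in control and 16 less, where 2.52% and 3.61% of all tested bins were called with those directions. The signs were opposite in the 2 depletions for 19 of the 27 exons (70.4%), beside 99 of 204 called bins of other kinds (48.5%) and 10 of the 18 called frame-shifting exons. Both folds share the same controls, and the difference between these shares was not tested. Most of the Qk6/7 values were small: 19 of 27 lay within 0.5 of 0 on the log2 scale. The exons with opposite signs and an absolute log2 fold of at least 0.5 in both depletions numbered 5, those of Phldb1, Bnip2, Nhsl1, Rapgef1 and Sept6.

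**Figure D2:**
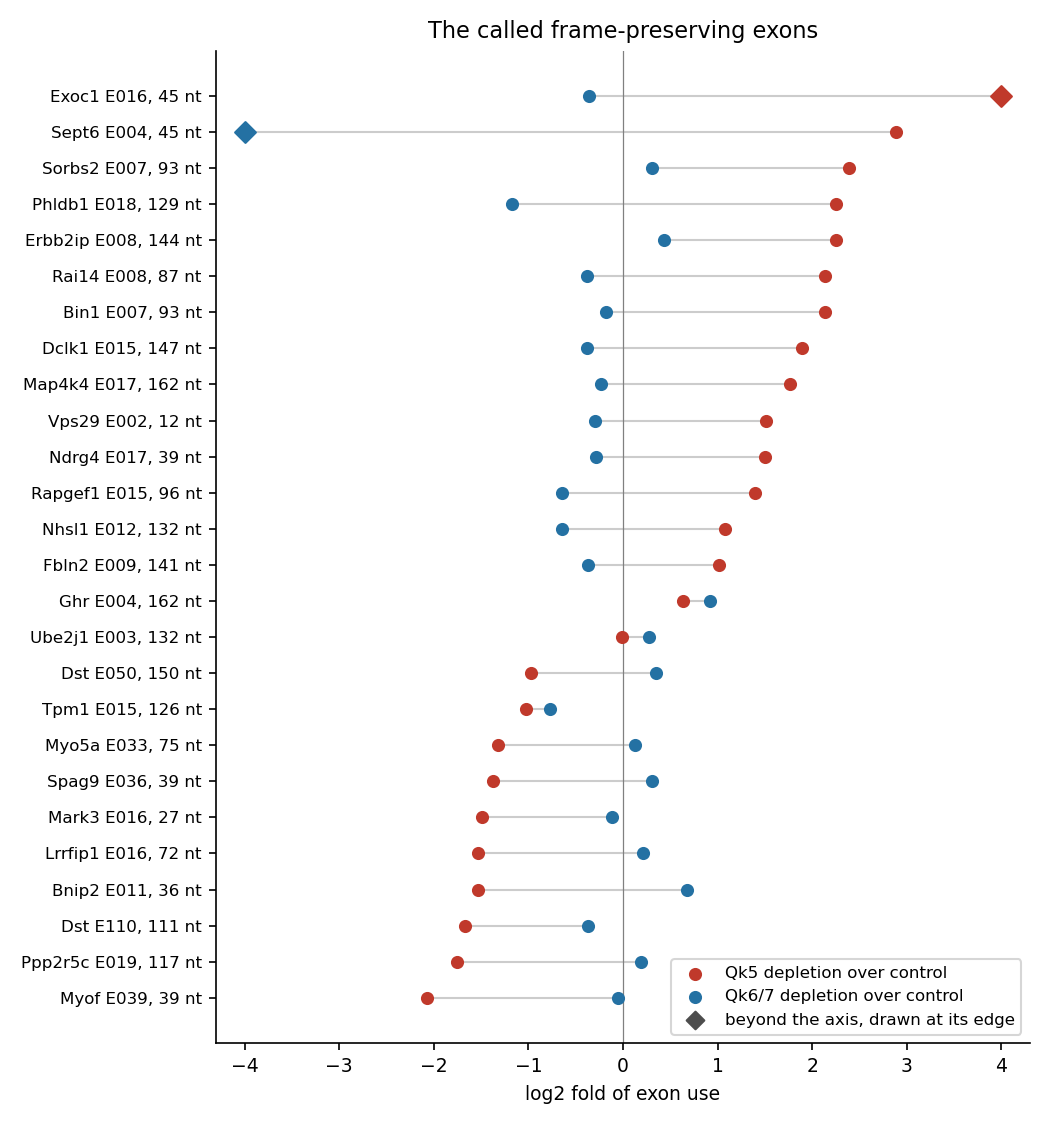
The 26 called exons reported by name, ordered by their log2 fold in Qk5 depletion (red), with the log2 fold in Qk6/7 depletion (blue) on the same row and the exon length in nt beside the gene and bin number. Except for Ghr, Ube2j1 and Tpm1, the red point of each row lies more than 1 log2 unit from the blue one. Diamonds stand at the edge of the axis for values beyond it.

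Protein kinases and their partners are described first, because Map4k4 had the smallest adjusted p among the frame-preserving exons. The next smallest were outside this group, in Rai14, Myof, Lrrfip1 and Sorbs2. In Map4k4, a Ste20-type kinase that acts upstream of JNK, the 162-nt bin E017 (mm9 chr1:40058275-40058436, plus strand) had a log2 fold of 1.76 in Qk5 depletion and -0.23 in Qk6/7 depletion by the authors' deposited table (DEXSeq adjusted p = 1.86e-32). That is 3.39-fold the use in control in Qk5 depletion and 0.853-fold in Qk6/7 depletion. The flanking bins stood at -0.06 and 0.19 in Qk5 depletion by the authors' deposited table, close to control on both sides of the exon.

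Spag9 encodes JIP4, a scaffold for JNK pathway kinases, and its 39-nt bin E036 (mm9 chr11:93974577-93974615, plus strand) went the other way, at -1.37 in Qk5 depletion and 0.31 in Qk6/7 depletion by the authors' deposited table (DEXSeq adjusted p = 0.00679). In Mark3, a kinase that phosphorylates microtubule-associated proteins, the 27-nt bin E016 (mm9 chr12:112890169-112890195, plus strand) was at -1.49 and -0.12 by the authors' deposited table (DEXSeq adjusted p = 0.0362). Both short exons were thus used less after Qk5 depletion, at 0.387-fold and 0.356-fold of control.

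Ppp2r5c, a B56 regulatory subunit of protein phosphatase 2A, had its 117-nt bin E019 (mm9 chr12:111812955-111813071, plus strand) at -1.76 in Qk5 depletion and 0.19 in Qk6/7 depletion by the authors' deposited table (DEXSeq adjusted p = 0.0123). The bins after it, E020 and the last bin E021, stood at -0.98 and -0.94 in Qk5 depletion by the authors' deposited table, neither of them called. Rapgef1, an exchange factor for the GTPase Rap1, had its 96-nt bin E015 (mm9 chr2:29576163-29576258, plus strand) at 1.39 and -0.65 by the authors' deposited table (DEXSeq adjusted p = 0.0105). Its upstream neighbours E013 and E014 leaned the same way, at 0.49 and 0.73 in Qk5 depletion and -0.45 and -1.05 in Qk6/7 depletion by the authors' deposited table, but were not called.

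Dclk1, a doublecortin-like kinase that binds microtubules, had its called 147-nt bin E015 (mm9 chr3:55293672-55293818, plus strand) in a run of bins with like values. It stood at 1.89 in Qk5 depletion and -0.38 in Qk6/7 depletion by the authors' deposited table (DEXSeq adjusted p = 0.000258). All 11 tested bins from E009 to E026 had positive log2 folds in Qk5 depletion, from 1.24 to 1.89 by the authors' deposited table, and 5 of them were called. The 8 tested bins from E001 to E008 were at -1.13 to -0.18 by the authors' deposited table. No annotated transcript that spans the called exon leaves it out. Of the 4 frame-preserving exons of that run, those at E014, E017 and E020 were not called, at 1.30, 1.65 and 1.49 by the authors' deposited table.

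Called exons of actin-bound proteins, cytolinkers and related genes are described next. In the list of actin and cortex genes 5 of 111 tested exons were called (4.5%), beside 2.7% of all tested frame-preserving exons. Myo5a, Lrrfip1, Phldb1 and Nhsl1, described with this group, are not on that list. Rai14, an ankyrin-repeat protein of actin bundles and a reported Quaking splicing target, had its 87-nt bin E008 (mm9 chr15:10519014-10519100, minus strand) at 2.14 in Qk5 depletion and -0.38 in Qk6/7 depletion by the authors' deposited table (DEXSeq adjusted p = 1.47e-15). Use was 4.41-fold that of control in the first and 0.768-fold in the second. The 93-nt bin E007 of Sorbs2 (mm9 chr8:46826841-46826933, plus strand), an adaptor of stress fibres and Z-discs, was at 2.39 and 0.31 by the authors' deposited table (DEXSeq adjusted p = 1.60e-07). Its neighbours stood at 0.32 and 0.27 in Qk5 depletion by the authors' deposited table.

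Tropomyosin coils along actin filaments, and Tpm1 has a pair of adjacent 126-nt exons, bins E014 and E015, known as alternatives to each other. E015 (mm9 chr9:66895931-66896056, minus strand) was at -1.03 in Qk5 depletion and -0.77 in Qk6/7 depletion by the authors' deposited table (DEXSeq adjusted p = 9.12e-05), used less in both. E014 was at 0.05 and 0.13 by the authors' deposited table and was not called. Elsewhere in the gene, bins E002 of 724 nt and E004 of 643 nt were called, at 1.61 and -1.21 in Qk5 depletion by the authors' deposited table (DEXSeq adjusted p = 7.58e-05 and 0.0241). The annotation has 3 transcripts with E015 and 10 that skip it, against 11 with E014 and 2 that skip it. Of the called exons with an absolute log2 fold of at least 1 in Qk5 depletion, that of Tpm1 had the smallest difference between the depletions, 0.25 on the log2 scale.

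Dst, the giant cytolinker dystonin, had more frame-preserving exons than any other gene of the table, 45, of which 44 were tested and 2 called. E110, of 111 nt near the 3′ end (mm9 chr1:34360266-34360376, plus strand), was at -1.67 and -0.37 by the authors' deposited table (DEXSeq adjusted p = 0.00372), between neighbours at 0.13 and 0.19 in Qk5 depletion. E050, of 150 nt (mm9 chr1:34251360-34251509, plus strand), was at -0.97 and 0.35 by the authors' deposited table (DEXSeq adjusted p = 0.0160). E050 lay in a stretch of 5 bins, E047 to E051, with log2 folds from -0.99 to -0.60 in Qk5 depletion and from 0.09 to 0.37 in Qk6/7 depletion by the authors' deposited table. The 5292-nt bin E047 was called by the authors' deposited table (DEXSeq adjusted p = 4.01e-90). E049 was also called by the authors' deposited table (DEXSeq adjusted p = 0.00335). E052, just past the stretch, was at 0.11 and 0.05 by the authors' deposited table. The 2 called Dst exons thus had different surroundings, the first alone among still neighbours and the second inside a block of like values.

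Myo5a, an unconventional myosin that carries cargo along actin, had its 75-nt bin E033 (mm9 chr9:75043933-75044007, plus strand) at -1.32 and 0.13 by the authors' deposited table (DEXSeq adjusted p = 0.00175). Lrrfip1, which binds the actin-remodelling protein Flightless, had its 72-nt bin E016 (mm9 chr1:92999824-92999895, plus strand) at -1.53 and 0.21 by the authors' deposited table (DEXSeq adjusted p = 1.15e-07). Phldb1, also called LL5-alpha and found with microtubule anchors at the cell cortex, had its 129-nt bin E018 (mm9 chr9:44516477-44516605, minus strand) at 2.25 and -1.17 by the authors' deposited table (DEXSeq adjusted p = 1.66e-05). Phldb1 had the widest gap between the depletions among exons with neither value beyond 8, -3.42 for Qk6/7 over Qk5 depletion on the log2 scale. Nhsl1, a relative of the Nance-Horan syndrome protein, had its 132-nt bin E012 (mm9 chr10:18235835-18235966, plus strand) at 1.08 and -0.65 by the authors' deposited table (DEXSeq adjusted p = 0.00396).

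**Figure D3:**
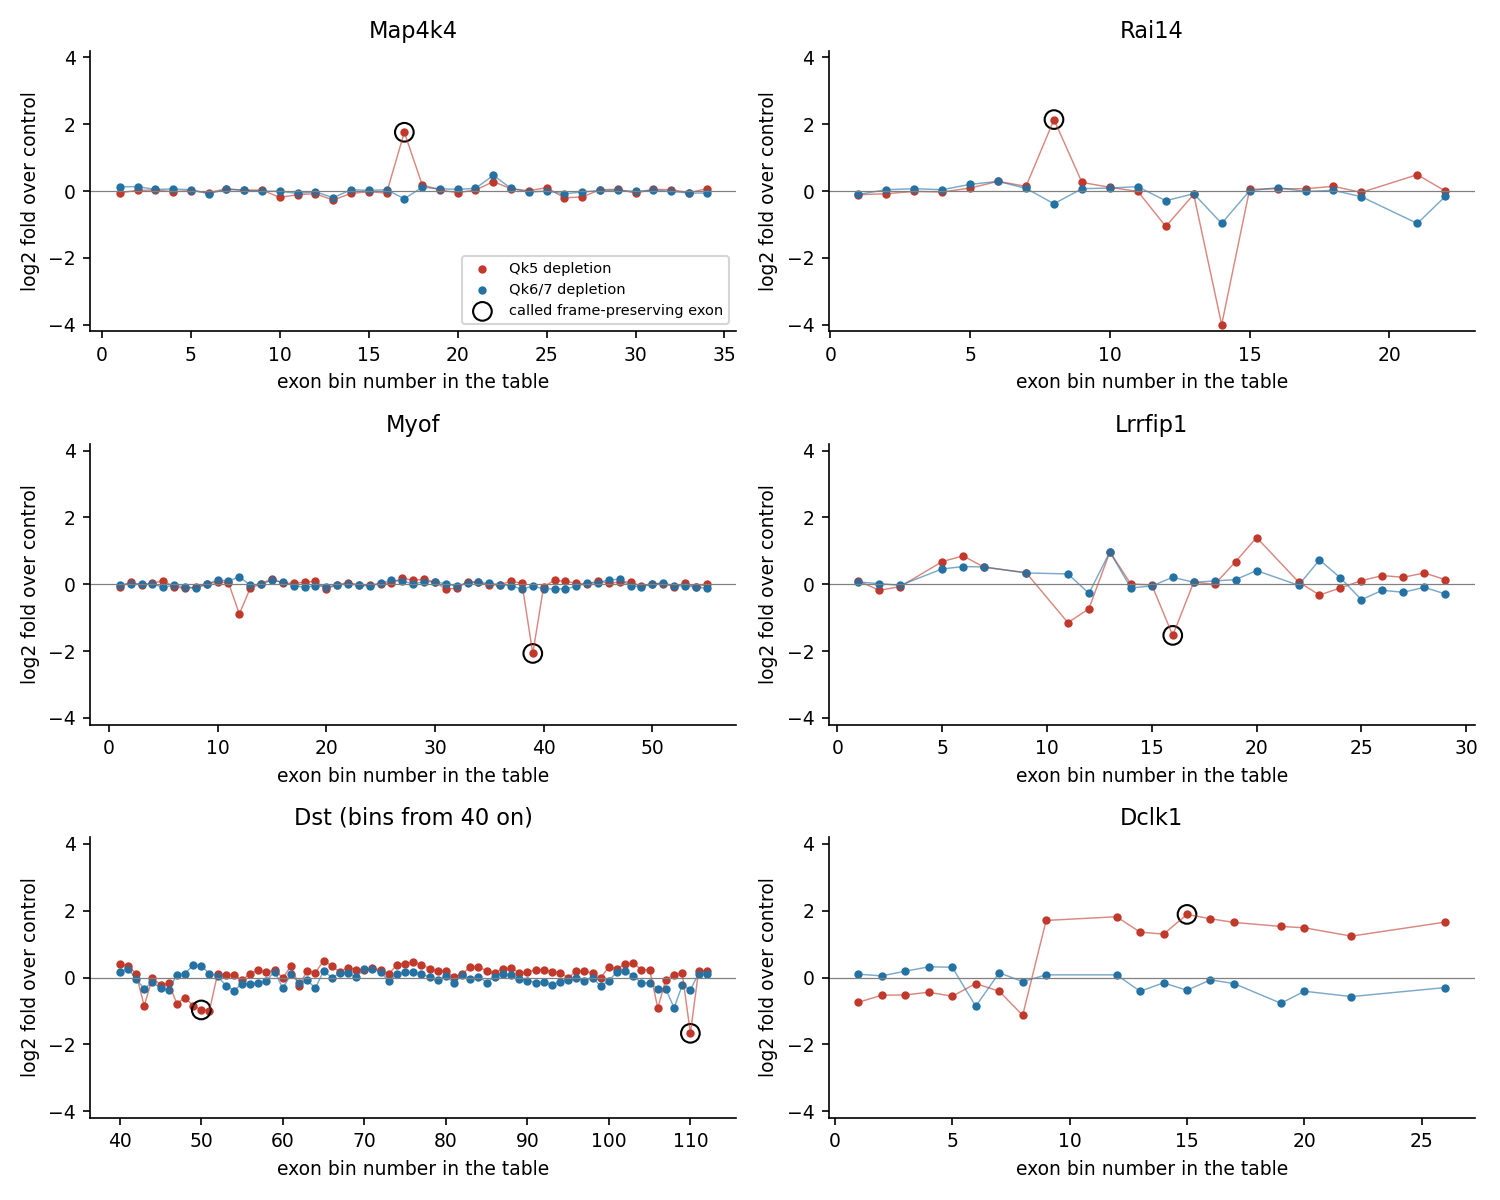
Log2 fold of use over control for each tested exon bin along 6 genes in the order of bin numbers (Dst from bin 40 on), in Qk5 depletion (red) and Qk6/7 depletion (blue), with called frame-preserving exons circled. In Map4k4, Rai14, Myof and Lrrfip1 the circled exon stands apart from its immediate neighbours, although Lrrfip1 has uncalled bins with folds of similar size, and in Dclk1 it lies in a raised run from E009 on, and in Dst one circled exon lies in a lowered block and the other stands alone. A Rai14 bin that was not called is drawn at the lower edge because its value lies beyond the axis.

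Several called exons lay in genes of membrane and vesicle proteins. Myof, myoferlin, takes part in membrane repair and myoblast fusion. Its 39-nt bin E039 (mm9 chr19:38044397-38044435, minus strand) had the lowest log2 fold of the called exons, -2.07 in Qk5 depletion, or 0.238-fold of control, and -0.05 in Qk6/7 depletion by the authors' deposited table (DEXSeq adjusted p = 2.34e-11). Its neighbours were at 0.03 and -0.07 in Qk5 depletion by the authors' deposited table. A further Myof bin was called, E012 of 1376 nt, at -0.89 by the authors' deposited table.

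Vps29, a subunit of the retromer that returns receptors from endosomes, had the smallest called exon, the 12-nt bin E002 (mm9 chr5:122806803-122806814, plus strand), at 1.51 and -0.30 by the authors' deposited table (DEXSeq adjusted p = 0.0284). Only 1 annotated Vps29 transcript holds it and 7 skip it. Bin1, or amphiphysin 2, shapes membranes and T-tubules in muscle, and its 93-nt bin E007 (mm9 chr18:32574599-32574691, plus strand) was at 2.13 and -0.18 by the authors' deposited table (DEXSeq adjusted p = 1.70e-05). The 5 other Bin1 exons that annotated transcripts skip were not called and lay between -0.94 and 0.14 in Qk5 depletion by the authors' deposited table.

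Exoc1, a subunit of the exocyst that tethers secretory vesicles, had its 45-nt bin E016 (mm9 chr5:76986844-76986888, plus strand) listed at 13.79 in Qk5 depletion and -0.36 in Qk6/7 depletion by the authors' deposited table (DEXSeq adjusted p = 0.00566). The 45-nt bin E004 of Sept6 (mm9 chrX:34460364-34460408, minus strand), a septin that forms cortical filaments, was listed at 2.89 and -9.84 by the authors' deposited table (DEXSeq adjusted p = 0.0458). Log2 folds beyond 8 in size can arise when a bin has hardly any reads in a condition. The reads per bin were not analysed here, and no ratio to control is given for these exons. Both exons still enter the counts by sign and size of the log2 fold in the other paragraphs. Leaving out both exons left 25 called.

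Bnip2, a protein with a Cdc42GAP homology domain that promotes muscle differentiation, had its 36-nt bin E011 (mm9 chr9:69852113-69852148, plus strand) at -1.53 and 0.68 by the authors' deposited table (DEXSeq adjusted p = 1.70e-05). Ndrg4, a member of the N-myc downstream-regulated family, had its 39-nt bin E017 (mm9 chr8:98236225-98236263, plus strand) at 1.5 and -0.29 by the authors' deposited table (DEXSeq adjusted p = 2.47e-05). The short exons went both ways in Qk5 depletion, 4 of the 8 used more and 4 less.

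The adhesion and matrix list had 56 tested exons in 4 genes, Erbb2ip, Fbln2, Fn1 and Itga7. Of these exons 2 were called (3.57%), both used more in Qk5 depletion, beside 2.70% of all tested frame-preserving exons. Matrix genes off that list, Col1a2 with 40 tested exons and Ltbp1 with 21, had 0 called, so the share is that of the listed genes only. Erbb2ip, now named Erbin, is a scaffold at basolateral membranes that binds the receptor ErbB2, and its 144-nt bin E008 (mm9 chr13:104620268-104620411, minus strand) was at 2.25 and 0.43 by the authors' deposited table (DEXSeq adjusted p = 1.03e-06). Fbln2, fibulin 2, is an extracellular matrix glycoprotein, and its 141-nt bin E009 (mm9 chr6:91209624-91209764, plus strand) was at 1.01 and -0.37 by the authors' deposited table (DEXSeq adjusted p = 1.63e-05).

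The absolute log2 fold was larger in Qk6/7 depletion in 3 called exons, those of Ghr, Ube2j1 and Sept6. In Ghr, the growth hormone receptor, the 162-nt bin E004 (mm9 chr15:3277525-3277686, minus strand) was at 0.63 and 0.92 by the authors' deposited table (DEXSeq adjusted p = 0.0236). The 1 annotated transcript with that exon has it at an end of the transcript, so it is not an annotated cassette exon.

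Ube2j1, a ubiquitin-conjugating enzyme of the endoplasmic reticulum, was called with small folds. Its 132-nt bin E003 (mm9 chr4:33125174-33125305, plus strand) was at -0.01 and 0.27 by the authors' deposited table (DEXSeq adjusted p = 0.0284). The neighbours E002 and E004 were at 0.27 and 0.23 in Qk6/7 depletion and the 2683-nt last bin E008 at -0.16 by the authors' deposited table, the last being called (DEXSeq adjusted p = 2.88e-16). No annotated transcript skips E003. The values of this exon were close to those of its neighbours.

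Most called exons stood apart from both neighbouring bins in Qk5 depletion. In 20 of the 27 the log2 fold in Qk5 depletion was at least 1 in size while both neighbouring bins lay within 0.5 of 0, between -0.30 and 0.32; 12 of these were used more and 8 less. The others were the exons of Dclk1, Rapgef1, Ppp2r5c, Erbb2ip, Ghr and Ube2j1 and Dst E050. In 21 of the 27 the exon was the only called bin of its gene. Over the whole table the 231 called bins lay in 192 genes, so a single called bin per gene was common there too. The limits of 1 and 0.5 were set with the values known. A call compares a bin with the rest of its gene, so a gap to the neighbours is partly built into it. The matching share among called bins of other kinds was not computed.

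Annotated alternative use was common among the called exons. All 27 matched a GENCODE exon, and 25 (92.6%) were skipped by at least 1 annotated transcript that spans them, against 164 of 964 (17%) of the uncalled exons with a match. Seen the other way, 25 of 189 annotated skipped exons were called (13.2%) and 2 of 802 others (0.249%), the 2 being those of Dclk1 and Ube2j1. Uncalled exons that annotated transcripts skip had a median absolute log2 fold of 0.18 in Qk5 depletion and 0.13 in Qk6/7 depletion, and other uncalled exons 0.11 and 0.09.

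Short exons made up different shares of the called and uncalled exons. Exons of at most 51 nt were 29.6% of the called and 6.48% of the uncalled ones, and 8 of 71 tested exons of that length were called (11.3%) against 19 of 928 longer ones (2.05%). Of the called exons 25 were wholly coding in an annotated transcript, as were 94.4% of all matched members; 16 of the 25 (64.0%) began at a codon boundary, against 61.4% of wholly coding uncalled exons. The median share of G and C was 50.7% in called and 49.2% in uncalled exons. None of these shares was tested, because exons of a gene are not independent and the table's genes were chosen for having a bin below an adjusted p of 0.1.

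**Figure D4:**
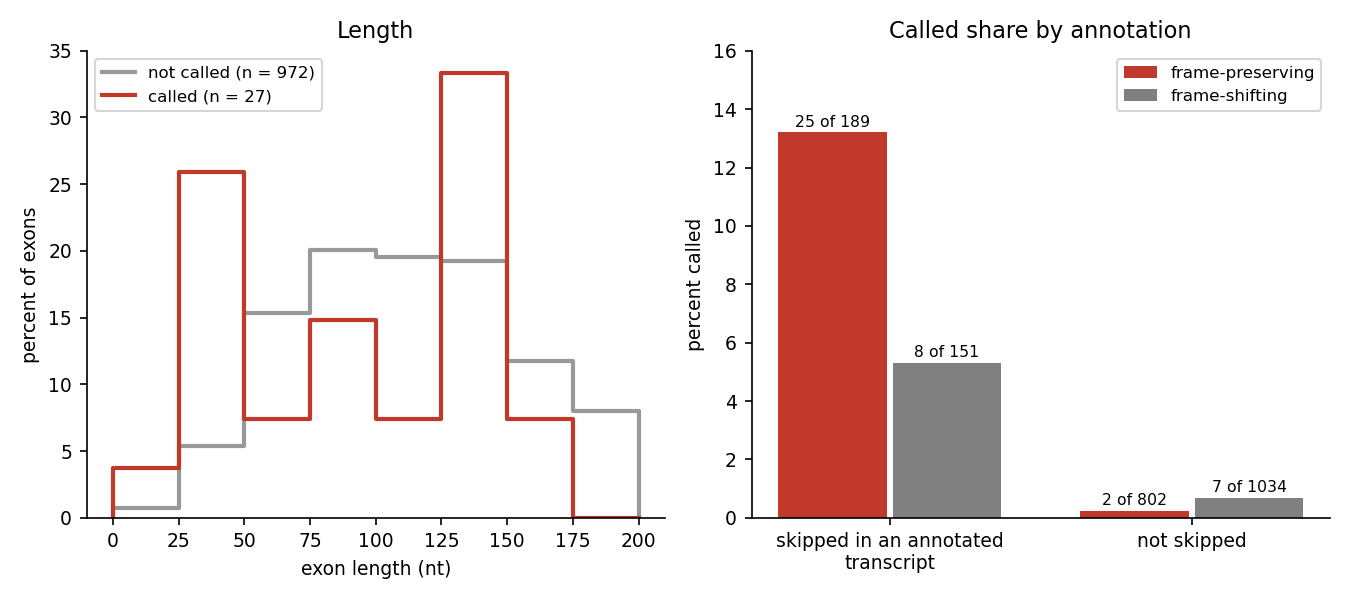
Left, the percentage of called (red, n = 27) and uncalled (grey, n = 972) frame-preserving exons in each 25-nt class of length. Right, the percentage called among tested exons that an annotated transcript skips and among the others, for frame-preserving (red) and frame-shifting (grey) exons, with the counts above the bars: 25 of 189 and 8 of 151 skipped exons were called.

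Separate internal exons of the same size whose length is not divisible by 3 were the nearest comparison. Of these 1271 frame-shifting exons 1206 were tested and 18 called, or 1.49% (exact 95% binomial interval 0.887 to 2.35) beside the 2.70% of frame-preserving ones. Among the called, 4 frame-shifting exons were used more and 14 less in Qk5 depletion, beside 16 and 11. Some of the 14 were close to 0, as in AK017143 (-0.03) and Rpl22 (-0.05), and the 11 include Ube2j1 at -0.01. The 14 also include 127-nt bins of the similarly named Gm14308, Gm14326 and Gm14434, which may not be independent. The median absolute log2 fold of called exons in Qk5 depletion was 0.76 beside 1.53. Of the annotated skipped exons 5.30% were called among the frame-shifting and 13.2% among the frame-preserving, and of exons up to 51 nt 3.17% (2 of 63) and 11.3%. These differences were not tested. The intervals of the called shares overlap, which does not show that the shares are alike. Both intervals treat exons as independent, though exons of a gene are not.

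**Figure D5:**
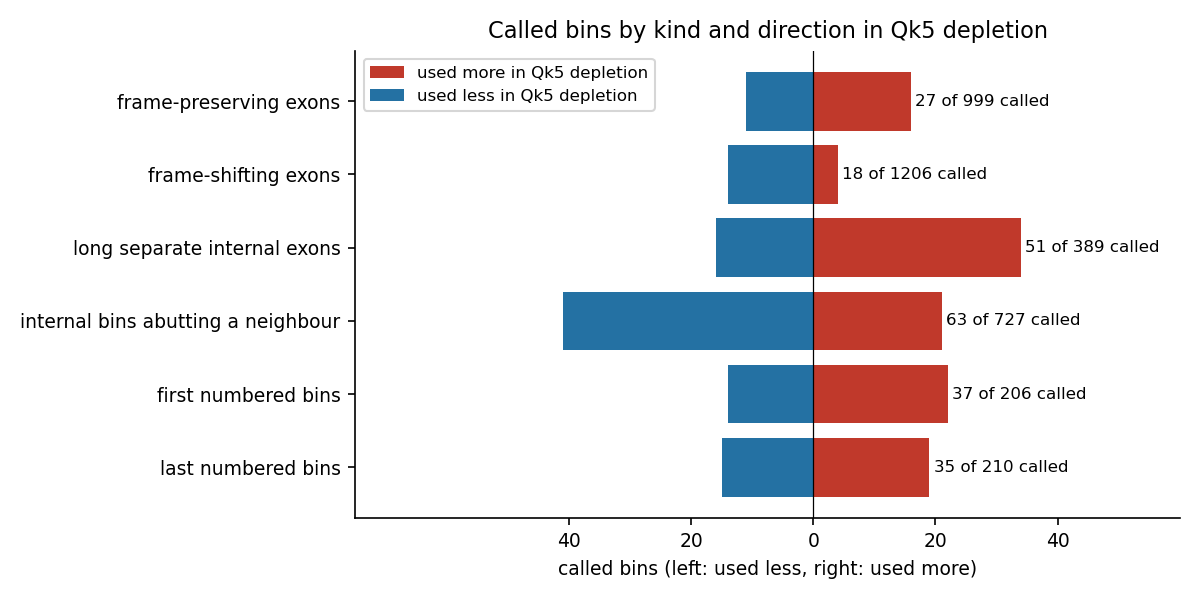
Number of called bins by kind of bin, those used more in Qk5 depletion to the right of 0 (red) and those used less to the left (blue), with the number called of the number tested. Frame-preserving exons had 16 to the right and 11 to the left, and frame-shifting exons 4 and 14. A few called bins with a log2 fold of exactly 0 are in the printed numbers and in no bar.

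The other kinds of bin, which are longer or touch a neighbour, had higher shares called, not tested: 13.1% of separate internal bins over 200 nt, 8.67% of abutting internal bins, 18% of first and 16.7% of last numbered bins. Called bins outside the frame-preserving exons had a median length of 1214 nt, against 96 nt, and a smaller median absolute log2 fold in Qk5 depletion, 0.475 against 1.53.

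Gene lists gave the following counts, beside the 2.7% called over all tested frame-preserving exons and the 6.18% over all tested bins. The list of reported Quaking splicing targets had 12 genes with 128 tested frame-preserving exons, of which 6 were called (4.69%): those of Rai14, Bin1, Erbb2ip, Tpm1 and the pair in Dst, 3 used more and 3 less in Qk5 depletion. Reports of these targets may rest on these same samples, so the list is not independent evidence. The actin and cortex list had 5 of 111 called (2 more, 3 less), and the list of kinases, phosphatases and GTPase regulators 4 of 56 (2 more, 2 less). The endocytosis and vesicle list, with tested exons in 4 genes, had 3 of 18, all used more in Qk5 depletion (Bin1, Exoc1 and Vps29). Other endosome and vesicle genes that are off this list, among them Eea1, Vps45 and Vps37a, had tested exons and none called. The share is therefore that of the listed genes only. The microtubule list had 2 of 22, the adhesion list 2 of 56 and the sarcomere and calcium list 2 of 20. No exon on the list of RNA-binding proteins (0 of 20) or on that of chromatin and transcription factors (0 of 3) was called.

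Some reported targets had annotated skipped exons that were measured and not called. In Mbnl1, a splicing regulator of muscle, the 54-nt bin E007 was at 0.11 in Qk5 depletion and 0.57 in Qk6/7 depletion, and the 36-nt bin E011 at 0.08 and 0.33, by the authors' deposited table. The 5 such exons of fibronectin, Fn1, lay between -0.08 and 0.21 in Qk5 depletion by the authors' deposited table. That of Rtn4 was at -0.32 and 0.17 by the authors' deposited table. An adjusted p above the threshold does not show that these exons were used equally.

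Just under the threshold were Vps29 and Ube2j1 (both at an adjusted p of 0.0284), Mark3 (0.0362) and Sept6 (0.0458) by the authors' deposited table. Just over it were Ube2j1 E007 of 120 nt (-0.05 in Qk5 and 0.31 in Qk6/7 depletion, adjusted p = 0.0626), the 120-nt bin E006 of the laminin receptor Itga7 (-1.15 and 0.08, adjusted p = 0.0805) and the 126-nt bin E002 of Tpm3 (4.28 and 2.47, adjusted p = 0.0946) by the authors' deposited table, all by the authors' DEXSeq test. Next came the 96-nt bin E017 of Add3, the actin-capping adducin gamma, at 1.86 and -0.84 by the authors' deposited table (DEXSeq adjusted p = 0.0953). Among the 972 uncalled exons 18 had an absolute log2 fold of at least 1 in Qk5 depletion and 4 in Qk6/7 depletion.

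Levels of host genes were listed for 3 of the 26 genes with a called exon, since the expression table holds changed genes only. Myo5a had a mean normalized count of 2827 in control and 4628 in Qk5 depletion, 1.64-fold, by the authors' deposited table (DESeq adjusted p = 0.0182), while its exon was used less. Ndrg4 stood at 1983 and 3046, 1.54-fold, by the authors' deposited table (DESeq adjusted p = 0.0303), and its exon was used more. Sorbs2 was at 1.49-fold with an adjusted p of 0.0709 by the authors' DESeq test by the authors' deposited table. None of the 3 passed in Qk6/7 depletion, each with an adjusted p of 1 by the authors' DESeq test by the authors' deposited table.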

How the data were processed

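Total RNA of C2C12 cells was depleted of ribosomal RNA and sequenced. The submitters' processing notes name TopHat2, Bowtie2, SAMtools, DESeq and bedtools, with build mm9. No version, counting method, strand setting or bin annotation is given in the sources used here. Per the file headers, the authors deposited, per exon bin, a single DEXSeq p-value over 3 conditions with its adjusted form, log2 folds of bin use (depletion over control as used here), and a dispersion score. For genes, the authors deposited a mean signal per condition (normalized count), the fold as a ratio and as log2, and DESeq p-values. No count model was refitted, as no value per replicate was at hand.

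Here bins were classed by position, and calls, medians and exact binomial intervals were computed with Python 3.11.15, pandas 2.3.3 and SciPy 1.17.1. The class rule was tested on simulated bins. Bins were matched to GENCODE M21 (GRCm38) when at least 3 bins of the gene had exons of the same lengths and spacing. No coordinate was carried between builds. Of the 1059 exons 1045 matched. "Skipped" means that a transcript has an intron spanning the exon. The rule for named genes took the called exons with their values, of which 1 is not reported here by name. The members, lists and rules were chosen with earlier results of these data known.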

Additional observations from a re-analysis of the deposited data

How the results depend on the processing

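The 8 counts and shares were recomputed under other thresholds, length limits, gaps and subsets, and 49 of 54 values stayed within 1.5 times the reported count or inside its interval. At adjusted p 0.01, members used less in Qk5 depletion numbered 7 and those used more in Qk6/7 depletion 7. With an absolute log2 fold of at least 1, 0.498% of frame-shifting exons were called. Leaving out genes with 1 called bin left 6 called members, and asking for 0.5 in both depletions left 5 of opposite sign, both by the construction of the alternative. Leaving out the exons beyond 8 gave 25 called and matched exons alone 27, both chosen after seeing the data. No paired analysis was possible because the tables hold no values per replicate, and leaving out a replicate was likewise not run. Depth per sample is unknown, so whether an uncalled exon had enough reads cannot be seen.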

Other observations

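Uncalled frame-preserving exons with an absolute log2 fold of at least 1 numbered 21, some in genes with a called exon (Dst, Lrrfip1, Sorbs2 and Dclk1). The examples here were picked out after their values were seen. In Eea1, a tether of early endosomes, the 126-nt bin E003 was at -0.44 in Qk5 depletion and 2.16 in Qk6/7 depletion by the authors' deposited table (unadjusted DEXSeq p = 0.00797), the largest absolute Qk6/7 value after Tpm3 among the uncalled. In Asph, which encodes aspartate beta-hydroxylase and the calcium-store proteins junctin and junctate, the 183-nt bin E030 was at 0.45 and -1.21 by the authors' deposited table (unadjusted DEXSeq p = 0.0260). In Rac1, a small GTPase that drives actin assembly, the 57-nt bin E004, which 1 annotated transcript holds and 2 skip, was at -1.01 and -0.11 by the authors' deposited table (unadjusted DEXSeq p = 0.394). None of these passed the authors' DEXSeq adjustment, each with an adjusted p of 1.

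Of the 60 frame-preserving exons without an adjusted p, 34 still had log2 folds and 26 had none.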
